A study of Mus musculus with 8 samples.

Results

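Myc and Mycn are transcription factors that act as dimers with Max, bind E-box sequences and activate genes of growth and metabolism. Mnt, Mxd1, Mxd3 and Mxd4 compete for Max and bring the Sin3 and histone deacetylase corepressors to the same sequences. Mga also dimerises with Max and is a subunit of PRC1.6, a variant Polycomb complex that keeps genes of germ cells silent in embryonic stem cells (ESCs). In ESCs, Myc and Mycn are known to share a role in proliferation and self-renewal. These 8 genes were chosen by name, with earlier results of these data known. Myc and Mycn were taken as the paralogues, Max as their partner and the other 5 as the antagonists. All were measured among 18194 named genes, by 22 of 45101 probe sets. A probe set is a group of short oligonucleotides on an Affymetrix whole-genome mouse array that read 1 transcript. Values below are log2 signals as normalised by the authors, so that a log2 ratio of 1 is a 2-fold difference, and each gene is given by its probe set of highest mean signal unless another is named.

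The cells were male ESCs of strain 129sv in which both endogenous copies of the gene for nucleostemin (NS, symbol Gnl3), a nucleolar GTP-binding protein, were disrupted, and NS came from a cDNA at the ROSA26 locus under a tet-off promoter. Doxycycline (Dox) for 6 days turned this cDNA off, in cells with forced Nanog, with forced Esrrb, with an empty vector in 2i medium (inhibitors of MEK and GSK3b) and with an empty vector in LIF and serum. The Dox-untreated cells of each background carried the same disruption and expressed NS. The question was how far Nanog, Esrrb or 2i changes the response of ESCs to loss of NS. Each of the 8 conditions was measured on 1 array, so a single pair of arrays has no test, and the 4 backgrounds were the only repeats of the Dox contrast.

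Gnl3 itself had 9.12, 8.61, 8.01 and 7.79 on the Dox-treated arrays of the Nanog, Esrrb, 2i and empty vector cells, against 13.68, 13.61, 13.54 and 13.47 on the Dox-untreated arrays of the same backgrounds. It fell in common by 5.19 (SE 0.19, limma across all genes, Benjamini-Hochberg adjusted p = 0.00278). The summed signal of 8 ESC markers, Nanog and Esrrb among them, lay between 15.17 and 15.68 (log2) on the Dox-treated arrays. It lay between 15.62 and 15.68 on the Dox-untreated arrays. The lowest sum, 15.17, was that of Dox-treated empty vector cells. The median log2 ratio of these markers was -0.06 with Nanog, 0.11 with Esrrb, -0.24 with 2i and -0.47 with the empty vector. The sum of 9 trophoblast markers was 13.59 in Dox-treated empty vector cells and 12.18 in Dox-treated 2i cells, but 10.48 with Nanog and 10.78 with Esrrb, against 9.80 to 10.95 on the 4 Dox-untreated arrays. The highest of the 9 in Dox-treated empty vector and 2i cells were the keratins Krt8, Krt18 and Krt19. In these bulk samples, fewer cells of a type and less RNA per cell cannot be told apart. In Dusp6, Spry4 and Etv4, described with Myc below, the 2i cells without Dox did not carry a mark of MEK inhibition.

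Across the network, the antagonist Mga was lower in all 4 Dox-treated backgrounds, and Mxd4 was higher with Dox in 2i and empty vector cells. Mycn had its largest Dox log2 ratios in the Nanog and Esrrb pairs at its main probe set, but not at its others. Myc was low on a single array, that of Dox-treated 2i cells. The common response, the mean Dox log2 ratio over the 4 pairs, passed the threshold (adjusted p under 0.05 in limma, fitted with a term for each background, 3 residual degrees of freedom) for 0 of the 8 members, where 7.07% of all genes passed. At an unadjusted p under 0.05 stood 3 members, Mga, Mycn and Mxd1, against 27.4% of all genes. The median common log2 ratio was -0.34 over the members and 0.00 over all genes. For 3 members (Mga, Mxd1 and Mxd3) all 4 Dox-treated arrays lay below all 4 Dox-untreated arrays, a pattern held by 8.96% of all genes, and for 0 members did they lie above, against 8.79%.

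**Figure D1:**
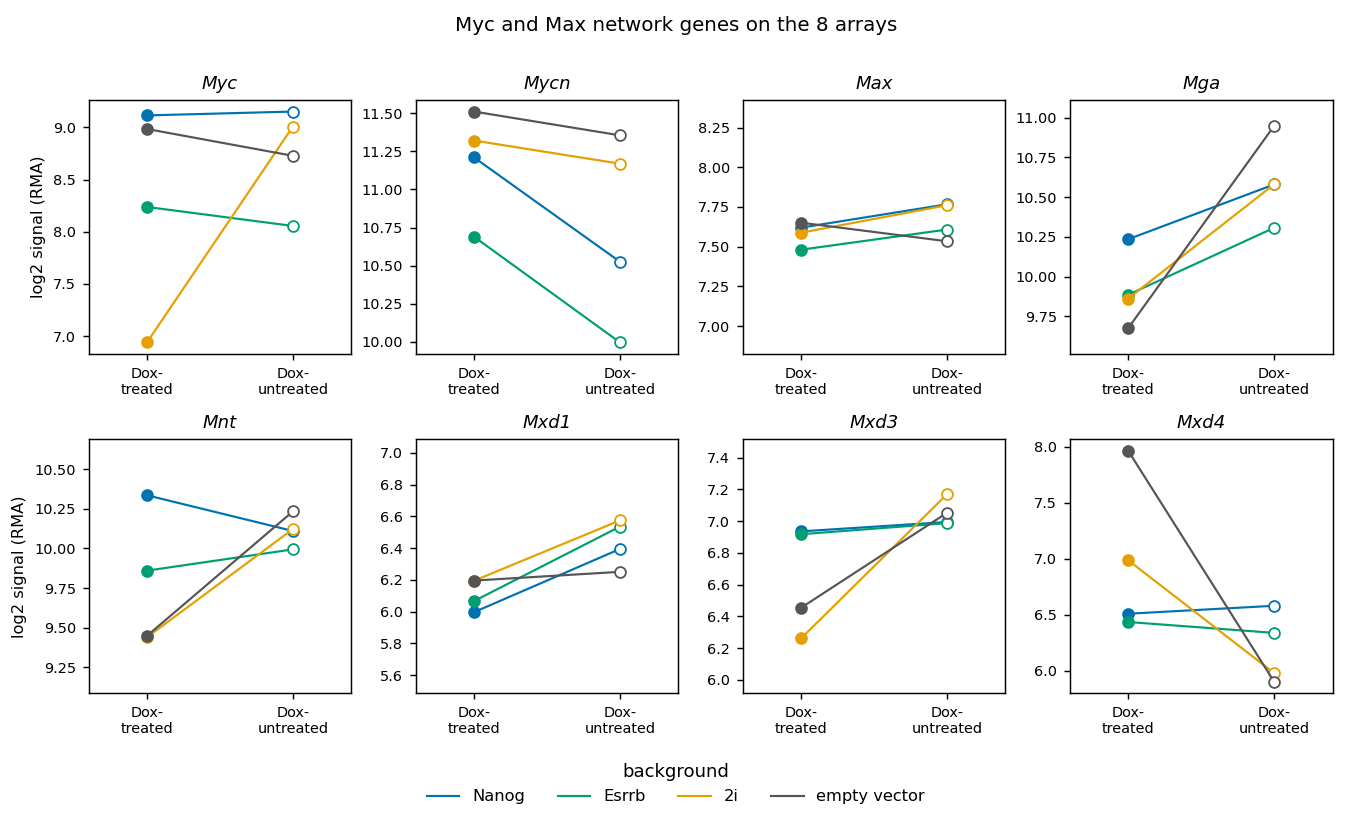
Log2 signal (vertical axes) of the main probe set of each of the 8 network genes on the Dox-treated array (left, filled) and the Dox-untreated array (right, open) of each background, joined by a line coloured by background, 1 array each and so without error bars. Myc drops on the Dox-treated 2i array alone, at 6.94, Mga is lower with Dox in every background, and Mxd4 separates most in empty vector cells, at 7.96 with Dox and 5.90 without.

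Mycn, the paralogue known from the nervous system and early embryo, was read by its main probe set, 1417155_at. It had 11.21, 10.69, 11.32 and 11.51 in Dox-treated Nanog, Esrrb, 2i and empty vector cells, against 10.53, 9.997, 11.17 and 11.36 in the Dox-untreated cells of the same backgrounds. Every Dox-treated array was thus above its own partner, but the groups overlapped. At this probe set Nanog and Esrrb cells had less Mycn than the other backgrounds with Dox and without it. With Nanog the Dox log2 ratio of Mycn was 0.68 and with Esrrb 0.69, above 97.0% and 96.9% of all genes in those pairs, but it was 0.15 for 2i and 0.16 for empty vector cells. The common ratio was 0.42 (SE 0.12, limma adjusted p = 0.0959), and the difference between the pairs with forced Nanog or Esrrb and the other pairs was 0.54 (SE 0.11, limma adjusted p = 0.103). Neither passed the threshold. The 2 other Mycn probe sets, 1425922_a_at and 1425923_at, were also higher with Dox in 4 of 4 pairs, as 18.4% of all genes were, with ratios between 0.07 and 0.28. They did not repeat the difference between pairs, which was 0.013 and 0.043 there (limma adjusted p over all probe sets, 0.989 and 0.961). At 1425923_at Esrrb cells had the highest level with Dox, at 7.018, against 6.866 in Nanog, 6.973 in 2i and 6.915 in empty vector cells.

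Without Dox, Mycn at its main probe set differed in Esrrb cells from its level in empty vector cells by -1.36 on the log2 scale. In that comparison 0.561% of all genes were over 2-fold lower. The difference was -0.83 for Nanog cells and -0.19 for 2i cells. With Dox, the differences from empty vector cells were -0.82 for Esrrb, -0.30 for Nanog and -0.19 for 2i. These differences were added after the levels were seen, compare single arrays of stable lines and carry no test. At 1425922_a_at the Dox-untreated levels in Nanog, Esrrb, 2i and empty vector cells were 7.43, 6.94, 7.56 and 7.75. At 1425923_at they were 6.78, 6.74, 6.82 and 6.80, so the lower level in Nanog and Esrrb cells was not repeated there.

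Myc, the founding member of the family, is read by 1 probe set here, 1424942_a_at. It had 9.12 in Nanog, 8.24 in Esrrb, 6.94 in 2i and 8.98 in empty vector cells with Dox, against 9.15, 8.06, 9.01 and 8.73 in the same backgrounds without Dox. In 3 of the backgrounds the Dox-treated and Dox-untreated arrays differed by at most 0.26, and only the 2i pair moved by more than 2-fold, with a log2 ratio of -2.07. Only 0.451% of genes had a lower ratio in that pair, where 3.1% of all genes were over 2-fold lower. The common ratio was -0.42 (SE 0.40, limma adjusted p = 0.553), and it was 0.13 (limma adjusted p = 0.55) when the 2i pair was left out. The difference between pairs was 0.98 with all 4 pairs (SE 0.72, limma adjusted p = 0.594). It was -0.18 without the 2i pair and 2.14 without the empty vector pair. In those fits a single pair stood on 1 side of the difference, so only the effect size is given.

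Genes that the MEK and Erk pathway switches on as its own feedback were read beside Myc, since 2i contains a MEK inhibitor. Dusp6, a phosphatase of Erk, had 10.79 in Nanog, 11.12 in Esrrb, 7.64 in 2i and 11.40 in empty vector cells with Dox, against 10.62, 10.98, 10.95 and 10.97 in those backgrounds without Dox. Spry4, an inhibitor of receptor tyrosine kinase signalling, had 9.39, 9.93, 4.07 and 9.17 in the same order with Dox and 9.70, 9.64, 9.92 and 10.17 without. Over its probe sets, the Spry4 ratio in the 2i pair ran from -5.85 to -0.60. Both genes, like Myc, were low on the array of Dox-treated 2i cells and at the level of the other backgrounds in Dox-untreated 2i cells. Etv4, an Ets factor downstream of Erk, was 6.10 in Dox-treated 2i cells and 8.73, 8.96 and 9.05 in Dox-treated Nanog, Esrrb and empty vector cells, against 8.65 to 8.97 on the 4 Dox-untreated arrays. The 2i pair is therefore not matched in these genes as its labels would have it, and Dox and MEK inhibition cannot be told apart in its ratios. Against the Dox-untreated empty vector array, the Dox-treated 2i array was at -1.79 for Myc, 1.08 for Mxd4 and -1.09 for Mga, and within 0.80 in either direction for the other 5 members. Egr1, an immediate early gene of the same list, followed another pattern, with 12.74 in Nanog, 12.55 in Esrrb, 9.80 in 2i and 9.41 in empty vector cells with Dox, against 11.20, 11.55, 10.73 and 9.51 without. Of the 6 feedback genes only Etv5 passed the common test, as 7.07% of all genes did, and rose by 0.34 (SE 0.06, limma adjusted p = 0.0314). Etv5 was not low on the Dox-treated 2i array, at 12.07 against 11.68 in 2i cells without Dox. Spry2 had a ratio of -0.94 in the 2i pair.

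**Figure D2:**
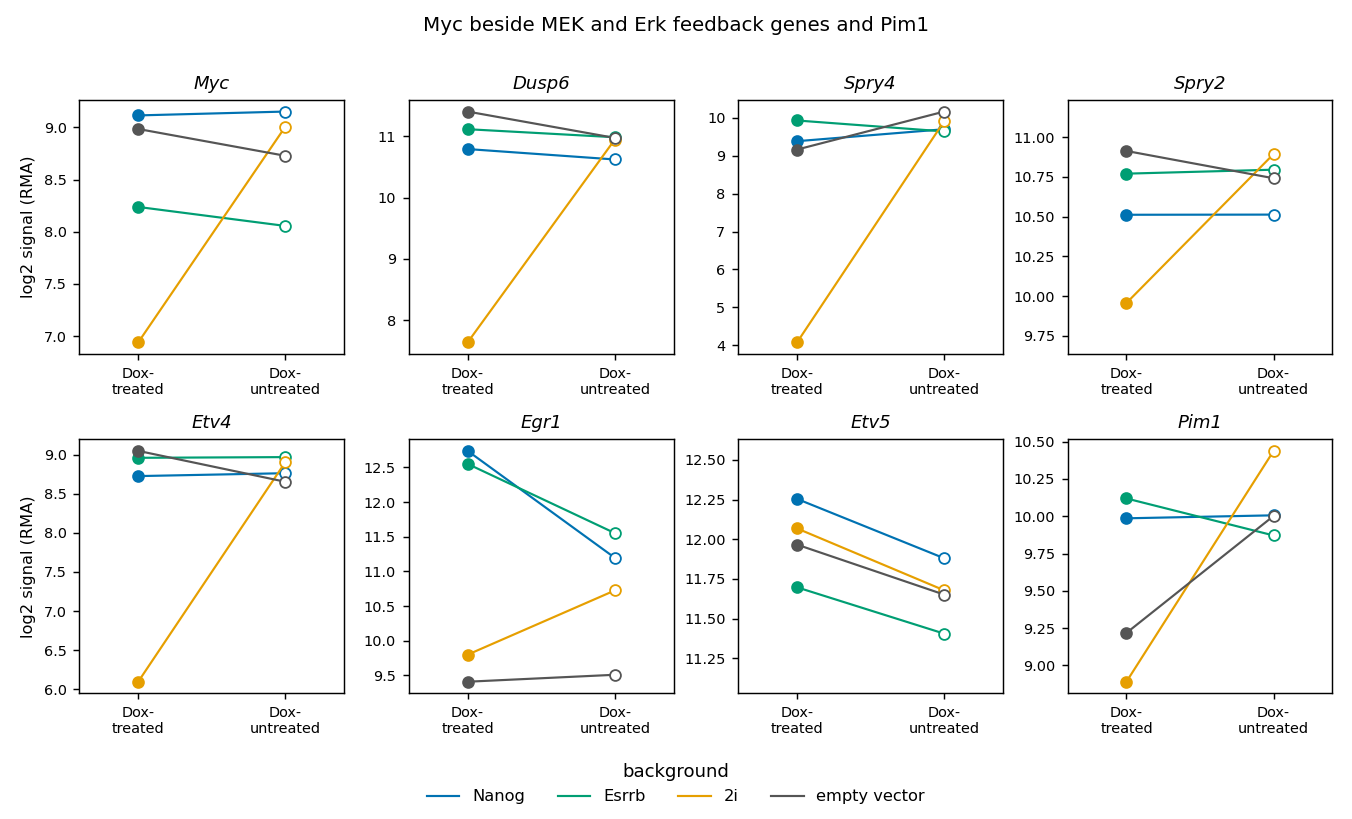
Log2 signal (vertical axes) of Myc, of the 6 MEK and Erk feedback genes and of Pim1 on the Dox-treated array (left, filled) and the Dox-untreated array (right, open) of each background, joined by a line coloured by background, 1 array each. Myc, Dusp6, Spry4 and Etv4 are all low on the Dox-treated 2i array, at 6.94, 7.64, 4.07 and 6.10, and on no other.

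Max, the obligate partner of all the others, varied least. It had 7.62, 7.48, 7.59 and 7.65 in Nanog, Esrrb, 2i and empty vector cells with Dox, against 7.77, 7.61, 7.76 and 7.53 without. The groups overlapped, and the ratio was -0.15, -0.13 and -0.17 in the Nanog, Esrrb and 2i pairs and 0.12 in the empty vector pair, with a common ratio of -0.08 (SE 0.11, limma adjusted p = 0.658).

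The promoters of 7 members were found in the RefSeq sequences of build GRCm38.p6, from 250 bases before to 50 bases after the annotated start, and were searched on both strands for the palindromic E-box CACGTG, the best known site of Max dimers. The letters occur in 3 of the 7, Max, Mnt and Mxd4, and in 7.15% of 32851 promoters of the same length. Those 3 are shown, each on its gene's strand with the E-box in capitals, together with that of Mga, which holds none and is the one member with probe sets past the test. Max lies at chr12:76962199-76962498 on the minus strand with the E-box from position -3, Mnt at chr11:74830674-74830973 on the plus strand with it from -123, Mxd4 at chr5:34187661-34187960 on the minus strand with it from -219, and Mga at chr2:119896978-119897277 on the plus strand.
Max: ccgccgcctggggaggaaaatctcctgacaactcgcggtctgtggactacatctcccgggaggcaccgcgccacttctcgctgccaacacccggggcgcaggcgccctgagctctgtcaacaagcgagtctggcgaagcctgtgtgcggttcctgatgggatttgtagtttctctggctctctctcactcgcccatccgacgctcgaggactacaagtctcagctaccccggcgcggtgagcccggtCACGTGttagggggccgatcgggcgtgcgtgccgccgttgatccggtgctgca
Mnt: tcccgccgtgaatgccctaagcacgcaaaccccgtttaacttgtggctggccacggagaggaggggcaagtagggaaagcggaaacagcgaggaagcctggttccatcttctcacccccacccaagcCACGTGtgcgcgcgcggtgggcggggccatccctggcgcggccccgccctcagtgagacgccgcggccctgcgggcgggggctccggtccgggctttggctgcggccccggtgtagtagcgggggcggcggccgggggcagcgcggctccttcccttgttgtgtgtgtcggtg
Mxd4: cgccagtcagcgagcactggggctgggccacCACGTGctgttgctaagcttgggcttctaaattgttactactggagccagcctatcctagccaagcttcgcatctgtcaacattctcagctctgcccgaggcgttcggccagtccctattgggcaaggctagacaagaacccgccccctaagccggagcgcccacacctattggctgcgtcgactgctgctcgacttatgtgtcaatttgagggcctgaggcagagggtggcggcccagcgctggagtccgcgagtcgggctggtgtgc
Mga: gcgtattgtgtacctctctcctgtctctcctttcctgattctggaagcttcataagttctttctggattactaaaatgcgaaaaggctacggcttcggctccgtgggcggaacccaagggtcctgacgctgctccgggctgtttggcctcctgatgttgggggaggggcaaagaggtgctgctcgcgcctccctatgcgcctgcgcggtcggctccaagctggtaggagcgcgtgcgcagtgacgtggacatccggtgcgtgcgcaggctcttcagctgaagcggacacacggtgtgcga
The 3 genes with an E-box did not move alike: Max varied little, Mnt was lower and Mxd4 higher in Dox-treated 2i and empty vector cells. The letters are a description of the window and not a measured binding site. An E2F sequence, TTCCCGC on either strand, occurs in the Mxd3 promoter alone and in 4.6% of all promoters, and a T-box sequence, GGTGTGA, the kind of site that the second DNA-binding domain of Mga is known for, occurs in 0 members and 3.98% of all promoters.

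Mga had 10.24, 9.88, 9.86 and 9.68 in Nanog, Esrrb, 2i and empty vector cells with Dox, against 10.58, 10.31, 10.58 and 10.95 without (probe set 1434746_at). The 4 Dox-treated arrays all lay below the 4 Dox-untreated arrays, and the ratios were -0.35 with Nanog, -0.42 with Esrrb, -0.72 with 2i and -1.27 with the empty vector. The last was over 2-fold, as in 3.85% of all genes in that direction. The common ratio was -0.69 (SE 0.16, limma adjusted p = 0.0596) and missed the threshold. Over 12 alternative settings its adjusted p lay between 0.0375 and 0.158.

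When each of the 45101 probe sets was tested by itself, 2 of the 5 Mga probe sets passed, where 6.01% of all probe sets did. Mga at 1422646_at had 6.83, 6.42, 6.93 and 6.74 in Nanog, Esrrb, 2i and empty vector cells with Dox and 7.39, 7.29, 7.63 and 7.75 without, and fell by 0.79 (SE 0.12, limma adjusted p = 0.0245). Mga at 1431232_a_at had 8.28, 7.92, 7.997 and 7.93 with Dox and 8.73, 8.68, 8.96 and 8.97 without, and fell by 0.80 (SE 0.13, limma adjusted p = 0.0260). At both, the Dox-treated arrays lay below all Dox-untreated arrays. The dimmer 1442356_at showed the same order with a common ratio of -0.43 (limma adjusted p = 0.0640), and 1433012_at stayed between 3.59 and 4.03, under the median signal of all probe sets, with ratios of both signs.

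Mnt, the most widely expressed of the Max-binding repressors, had 10.34, 9.86, 9.44 and 9.45 in Nanog, Esrrb, 2i and empty vector cells with Dox, against 10.11, 9.99, 10.12 and 10.23 without. The 2 lowest arrays were those of Dox-treated 2i and empty vector cells, with ratios of -0.68 and -0.78, while the Nanog pair had 0.23 and the Esrrb pair -0.13. The common ratio was -0.34 (SE 0.18, limma adjusted p = 0.282) and the difference between the pairs with forced factors and the other pairs was 0.78 (SE 0.17, limma adjusted p = 0.115). The dim probe set 1418193_at, under the median signal, was lower with Dox in 4 of 4 pairs, with a common ratio of -0.18.

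Mxd3, the member of its family known from the S phase of proliferating cells, was alike in this. It had 6.93, 6.92, 6.26 and 6.45 with Dox in Nanog, Esrrb, 2i and empty vector cells, against 6.99, 6.99, 7.17 and 7.05 without, with ratios of -0.06, -0.07, -0.91 and -0.60. All Dox-treated arrays lay below the Dox-untreated arrays, by a narrow margin in Nanog and Esrrb cells. Its common ratio was -0.41 (SE 0.18, limma adjusted p = 0.2). The 2 other probe sets, 1422970_at and 1438847_at, were lower with Dox in 4 of 4 pairs as well, with common ratios of -0.41 and -0.58 (limma adjusted p over all probe sets, 0.149 and 0.0540).

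Mxd4, like Mxd1 a gene associated with cells that leave the cycle and differentiate, went the other way. It had 6.51, 6.43, 6.99 and 7.96 in Nanog, Esrrb, 2i and empty vector cells with Dox, against 6.58, 6.34, 5.98 and 5.90 without. Empty vector cells had a ratio of 2.06 and 2i cells one of 1.01, over 2-fold as in 5.36% and 4.81% of all genes, while Nanog and Esrrb cells had -0.07 and 0.10. The common ratio was 0.77 (SE 0.36, limma adjusted p = 0.227) and the difference between pairs was -1.52 (SE 0.37, limma adjusted p = 0.142). In the empty vector pair all 4 Mxd4 probe sets were higher with Dox, by 2.06 at the main one, 1.54 at 1434379_at, 1.44 at 1422574_at and 0.47 at 1422575_at. In the 2i pair only the main one was over 2-fold, and the others, in the same order, had 0.55, 0.41 and 0.79. At 1422575_at, whose mean signal was under the median of all probe sets, the Esrrb pair had 0.71, more than the empty vector pair. Between Dox-treated arrays, Mxd4 differed from its level in empty vector cells by -1.45 in Nanog cells and -1.53 in Esrrb cells, where 3.68% and 3.56% of all genes were over 2-fold lower, and by -0.98 in 2i cells. The same difference for Myc in 2i cells was -2.05 (2.58% of all genes over 2-fold lower). The trophoblast marker sum was also highest in these Dox-treated cells, with 13.59 in empty vector and 12.18 in 2i cells, and 7 and 5 of the 9 markers were over 2-fold higher in those pairs against 0 in the Nanog and Esrrb pairs. Of the 9, 1 was below the median signal on all arrays. Their part in the Mxd4 values was not tested.

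Mxd1 had 6.00, 6.07, 6.20 and 6.20 in Nanog, Esrrb, 2i and empty vector cells with Dox, against 6.39, 6.54, 6.58 and 6.25 without. The Dox-treated arrays lay below all Dox-untreated arrays, with ratios of -0.40, -0.47 and -0.38 in the Nanog, Esrrb and 2i pairs and -0.06 in the empty vector pair, and a common ratio of -0.33 (SE 0.12, limma adjusted p = 0.141). Its 2 other probe sets were near the median signal of all probe sets and did not repeat this order.

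Thus 4 of the 5 antagonists were lower with Dox in each pair, though not the same 4, and their median ratio was -0.07 with Nanog, -0.14 with Esrrb, -0.68 with 2i and -0.60 with the empty vector, beside -0.01, 0.00, 0.03 and -0.03 for all genes. Over 2-fold were 0 members with Nanog and 0 with Esrrb, where 2.3% and 2.03% of all genes were. In 2i cells 2 members were, Myc lower and Mxd4 higher, against 7.91% of all genes, and in empty vector cells 2 were, Mga lower and Mxd4 higher, against 9.22%. Counted by probe set, 9 of the 22 were lower and 5 were higher with Dox in 4 of 4 pairs, against 18.3% and 15.1% of all probe sets. The lower ones were mostly of Mga and Mxd3, and the higher ones were all of Mycn and Mxd4. Probe sets of the same gene are not independent, so these counts repeat a few genes. By probe set 2 passed the common test, both of Mga, against 6.01%.

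**Figure D3:**
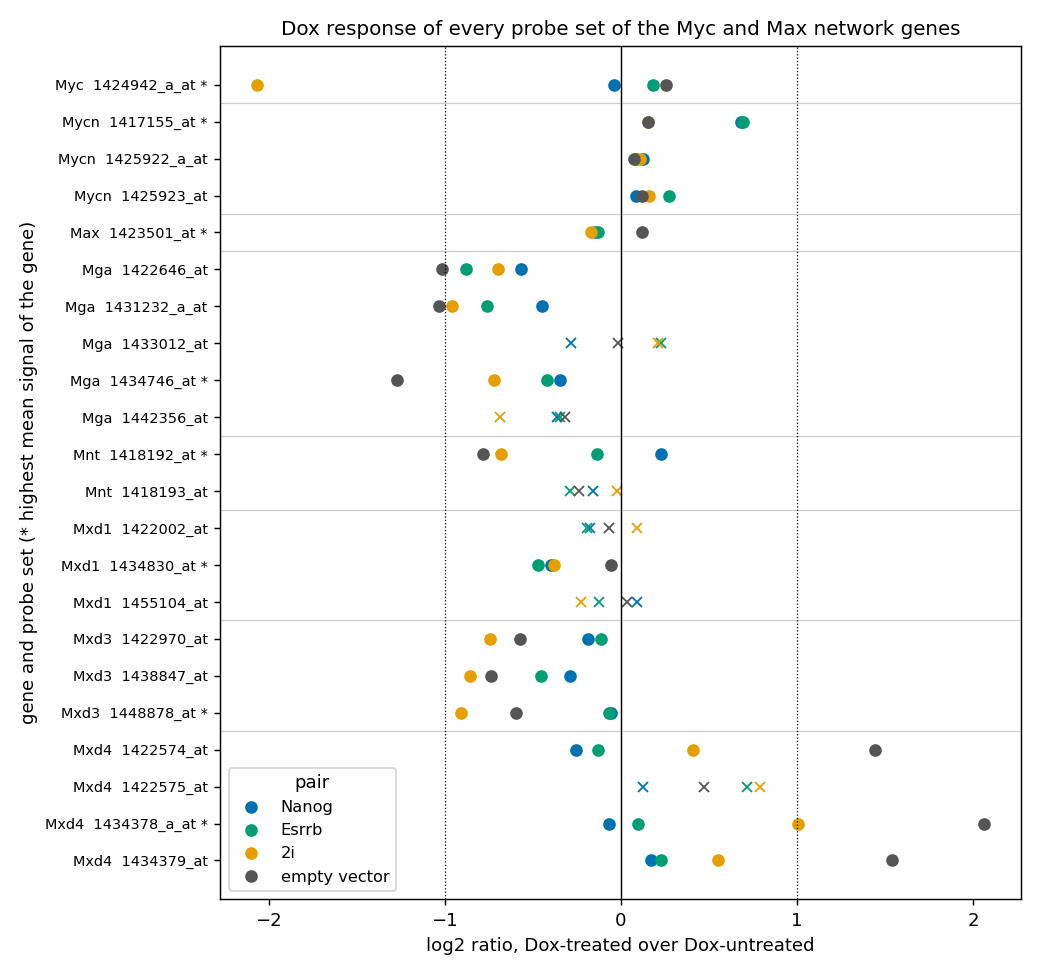
Dox log2 ratio (Dox-treated minus Dox-untreated signal, horizontal axes) of all 22 probe sets of the 8 genes in each of the 4 pairs. Crosses mark probe sets whose mean signal is under 5.33, the median of all probe sets. Mga and Mxd3 lie left of 0 at most of their probe sets, and the 4 Mxd4 probe sets lie right of 0 in the empty vector pair, between 0.47 and 2.06.

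The difference between the Nanog and Esrrb pairs and the 2i and empty vector pairs passed the threshold for 0 of the 8 members and for 0.0824% of all genes (15 genes, limma with 2 residual degrees of freedom). At an unadjusted p under 0.05 stood 5 members, Mycn (0.0032), Mnt (0.0043), Mxd4 (0.0076), Mxd3 (0.0185) and Mga (0.0267), against 15.8% of all genes in the same limma fit. The estimates were positive for Mycn, Mnt, Mxd3 and Mga, that is, higher Dox ratios with forced Nanog or Esrrb, and negative for Mxd4. These values are those of the main probe sets. With the probe sets of each gene averaged, the estimates were smaller. They were 0.20 for Mycn, 0.34 for Mnt, -0.92 for Mxd4, 0.54 for Mxd3 and 0.23 for Mga (limma adjusted p = 0.559, 0.426, 0.231, 0.237 and 0.564). When a pair was left out, a single pair stood on 1 side of the difference, so only effect sizes are given. Without the empty vector pair they were 0.54 for Mycn, 0.73 for Mnt, -0.99 for Mxd4, 0.84 for Mxd3 and 0.34 for Mga. Without the 2i pair they were 0.53, 0.83, -2.05, 0.53 and 0.89 in the same order. With the Nanog or the Esrrb pair left out these members kept their signs. Those fits have 1 residual degree of freedom.

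Outside the 8, the network holds 5 further genes. Mxi1, another Mxd-type antagonist, also called Mxd2, had 8.92, 8.64, 8.67 and 8.15 in Nanog, Esrrb, 2i and empty vector cells with Dox, against 8.27, 7.96, 8.08 and 7.79 without, higher in 4 of 4 pairs. It rose by 0.57 (SE 0.10, limma adjusted p = 0.0365), as 3.69% of all genes did, in contrast to Mxd1 and Mxd3. Its second probe set gave 0.12. Mycl, the third Myc paralogue, had a common ratio of -0.26, Mlx, the Max-like partner, one of 0.32, and the glucose-responsive factors that pair with Mlx, Mlxip and Mlxipl, had -0.07 and 0.35. None of these 4 passed. Txnip and Arrdc4, known targets of Mlxip (MondoA), both fell. Arrdc4 had 9.02, 9.04, 9.42 and 8.90 in Nanog, Esrrb, 2i and empty vector cells with Dox, against 10.45, 10.24, 10.39 and 10.38 without, and its common ratio was -1.27 (SE 0.11, limma adjusted p = 0.0144). Txnip, which binds thioredoxin and restrains glucose uptake, had a common ratio of -0.53 (SE 0.10, limma adjusted p = 0.0366).

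Of the proteins that work with the members, Cdk9, the kinase of P-TEFb that releases paused polymerase, rose by 0.47 (SE 0.06, limma adjusted p = 0.0236). It was 1 of 14 coactivator genes to pass, close to the 7.07% of all genes that passed. Its other probe set gave a common ratio of 0.18. Among 12 genes of Myc protein turnover 0 passed, with 4 at an unadjusted p under 0.05 in limma, against 27.4% of all genes. Fbxw7, the ubiquitin ligase subunit for phosphorylated Myc, had 9.99, 10.20, 10.76 and 10.92 in Nanog, Esrrb, 2i and empty vector cells with Dox, against 9.66, 9.83, 9.48 and 9.48 without, a difference between pairs of -1.01 (SE 0.13, limma adjusted p = 0.0521). Usp28, the deubiquitinase that opposes it, had 9.12, 9.19, 8.18 and 8.32 with Dox and 9.33, 8.95, 9.86 and 9.77 without, a difference of 1.57 (SE 0.21, limma adjusted p = 0.0521). On the Dox-treated 2i and empty vector arrays Fbxw7 was thus at its highest and Usp28 at its lowest, and neither difference passed. Of 12 Sin3 and histone deacetylase genes 0 passed, with 5 at an unadjusted p under 0.05 in limma, against 27.4% of all genes, and a median common ratio of -0.12. Of 9 PRC1.6 partners of Mga and Max 1 passed: Pcgf6, the Polycomb subunit that defines the complex, had 10.59, 10.21, 10.70 and 10.31 in Nanog, Esrrb, 2i and empty vector cells with Dox, against 11.02, 10.62, 11.09 and 11.03 without, and fell by 0.49 (SE 0.08, limma adjusted p = 0.0345), as 3.39% of all genes did. Its 3 probe sets ranged from -0.60 to -0.04.

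Of 24 germ cell genes that Mga, Max and PRC1.6 are known to silence, 5 fell and 1 rose, against 3.39% and 3.69% of all genes, and 12 were lower with Dox in 4 of 4 pairs, a pattern of 19.1% of all genes. The median common ratio was -0.55. Sycp3, a protein of the synaptonemal complex, had 10.06, 9.74, 8.24 and 8.47 in Nanog, Esrrb, 2i and empty vector cells with Dox, against 11.54, 10.89, 10.37 and 11.36 without, and fell by 1.91 (SE 0.28, limma adjusted p = 0.0265). Sycp1 (-0.91) and Sycp2 (-0.96), of the same structure, Tdrkh (-0.89), of the piRNA pathway, and Tex101 (-0.52), a germ cell surface protein, also fell. Their mean signals were low, at 5.96, 5.34, 5.97 and 4.97 in that order, beside a median of 5.33 over all probe sets. Dazl, an RNA-binding protein of germ cells, rose by 1.36 (SE 0.29, limma adjusted p = 0.0499). Taf7l, a testis paralogue of a TFIID subunit, had ratios of -2.48, -1.54, -0.97 and -0.24 in the Nanog, Esrrb, 2i and empty vector pairs, and Tex11, a meiotic gene, had -2.32, -0.48, -0.45 and -1.24, neither past the threshold in common.

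Of 24 genes that Myc is known to activate, 5 rose and 1 fell, against 3.69% and 3.39% of all genes, with a median common ratio of 0.02. Tert, the catalytic subunit of telomerase, had 7.92, 8.10, 8.78 and 7.67 in Nanog, Esrrb, 2i and empty vector cells with Dox, against 6.86, 6.86, 7.28 and 6.90 without, and rose by 1.14 (SE 0.14, limma adjusted p = 0.0221). Cad, which starts pyrimidine synthesis, had 10.76, 10.20, 11.09 and 11.09 with Dox and 9.83, 9.69, 9.66 and 9.85 without, and rose by 1.02 (SE 0.16, limma adjusted p = 0.0287). Tfrc (0.59), the transferrin receptor, Ldha (0.54), of glycolysis, and Gart (0.39), of purine synthesis, rose as well, and Nop56 (-0.44), of nucleolar ribonucleoproteins, fell. Over their probe sets, the common ratio ran from 0.11 to 1.02 for Cad and from 0.10 to 0.59 for Tfrc. Ccnd2, cyclin D2, had ratios of 0.27, -0.36, 1.35 and 2.38 in the Nanog, Esrrb, 2i and empty vector pairs and did not pass.

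Of 9 genes that Myc is known to repress, 1 rose and 1 fell, against the same 3.69% and 3.39% of all genes. Cdkn2b, the cyclin-dependent kinase inhibitor p15, had 7.14, 7.29, 8.91 and 8.97 in Nanog, Esrrb, 2i and empty vector cells with Dox, against 5.68, 5.53, 5.81 and 5.20 without, and rose by 2.53 (SE 0.40, limma adjusted p = 0.0298). Cdkn1b, the inhibitor p27, fell by 0.79 (SE 0.15, limma adjusted p = 0.0419), and Cdkn1a, the inhibitor p21, had ratios of 0.48, 0.39, 2.16 and 1.46 in the Nanog, Esrrb, 2i and empty vector pairs, not past the threshold. Thbs1, an inhibitor of angiogenesis, was over 2-fold higher in the 2i and empty vector pairs, at 1.05 and 3.03, and Ndrg2 was over 2-fold lower there, at -1.93 and -1.74. The other Thbs1 probe set had 0.20 and 1.67 in those pairs. Both Thbs1 signals of the 2i pair, 4.83 with Dox and 3.78 without, were under the median of all probe sets. Of the LIF and Stat3 list 0 of 6 genes passed, with 2 at an unadjusted p under 0.05 in limma, against 27.4% of all genes, and Pim1, a kinase that stabilises Myc, had ratios of -0.02, 0.25, -1.55 and -0.78 in the Nanog, Esrrb, 2i and empty vector pairs. In that last pair Lifr, a subunit of the LIF receptor, had -1.09 and Klf4, a pluripotency factor, had -1.23. Over their probe sets, that ratio ran from -1.09 to -0.10 for Lifr and from -1.46 to -1.23 for Klf4. All these calls rest on 4 pairs: with 1 pair left out, 3 to 35 genes of all passed the common test, and of the 21 list genes called, 20 passed in none of the 4 such fits and 1, Arrdc4, passed in 1. Over the settings that kept all 4 pairs, 8 of these 21 passed in each (Sycp1, Sycp3, Cad, Ldha, Gart, Tert, Cdkn2b and Arrdc4) and 13 did not in at least 1. Mxi1, Cdk9, Pcgf6, Dazl, Tdrkh, Tfrc and Etv5 did not pass with the probe sets of each gene averaged. Mxi1, Pcgf6, Tdrkh, Tfrc, Etv5, Sycp2, Tex101, Cdkn1b and Txnip did not pass without the background term, nor did Dazl, Tdrkh, Tfrc, Etv5, Nop56 and Sall4 without the trend. With arrays centred on their median Dazl and Tfrc did not pass, and with a further quantile normalisation Dazl did not.

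**Figure D4:**
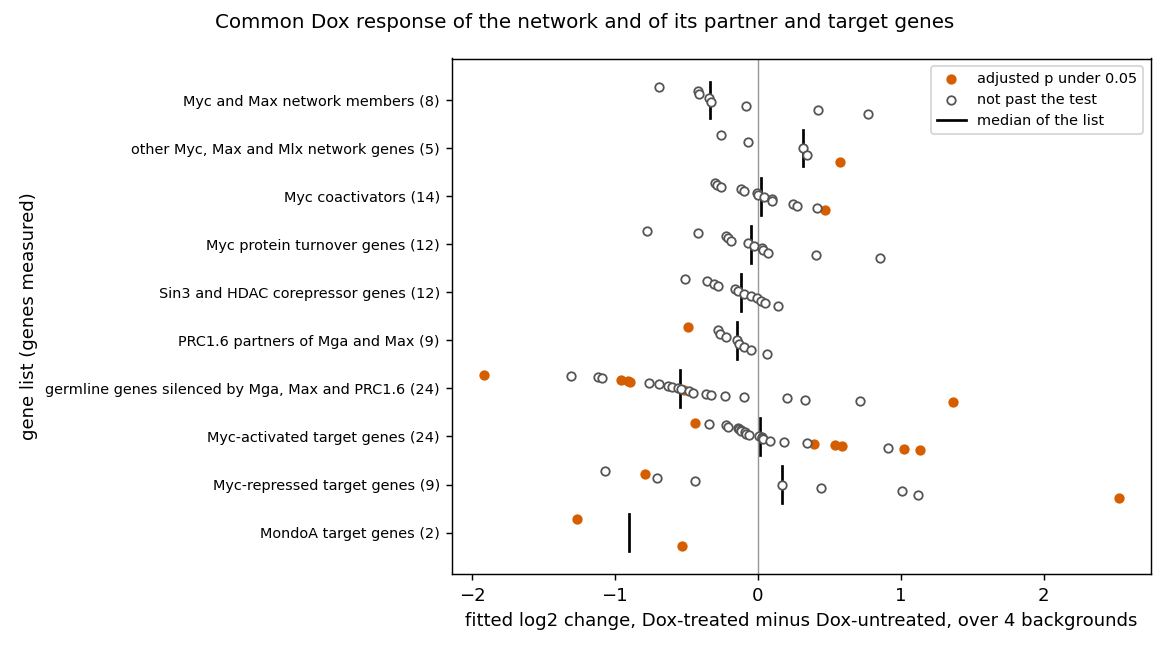
Common Dox log2 ratio (horizontal axis, mean of the 4 pairs) of each measured gene of the network and of its partner and target lists (rows), with genes past the limma threshold drawn apart from the rest. The 8 members spread around a median of -0.34 with 0 past the threshold, and the germ cell genes have the lowest median of the lists with more than 6 genes, -0.55.

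Genes with a like profile were sought by Pearson's r over the 8 arrays among 1228 genes of above-median signal and an SD of at least 0.5, as a description. Mga was most like Zfas1 (0.97), Kntc1 (0.97) and Syce2 (0.96), Mxd3 like Sall1 (0.99), Nemp2 (0.98) and Lgr4 (0.98), and Mnt like Socs2 (0.96), Snx8 (0.95) and Trh (0.95). Mxd4 was most like Ninj1 (0.97), Dsp (0.96) and Errfi1 (0.96), and Myc like Fam169a (0.92), 2010204K13Rik (0.92) and 1190005I06Rik (0.91). Mycn was most like Jag1 (0.89), Sntb2 (0.88) and Id2 (0.85), and Mxd1 like Angptl6 (0.90), Reep6 (0.86) and Ghitm (0.85). Max, whose own spread was small, had its best match, Stc2, at 0.66, followed by Lratd2 (0.65) and Vldlr (0.61).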

How the data were processed

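The deposited values were log2 signals after robust multi-array averaging (RMA) by the authors, 1 value for each of 45101 probe sets on 8 arrays; that the scale is log2 was read from the values, which ran from 1.82 to 14.63 with array medians from 5.31 to 5.36. They were used as deposited. Intensity over background is not given in the sources used here, and 1 array per condition limits the precision. Probe sets were named from the platform annotation (34958 with 1 symbol, 932 with several and 9211 unnamed, of which only the first were used), with 34754 matched to RefSeq by Entrez ID and 0 symbols changed, and each of 18194 genes took its probe set of highest mean. List genes with no probe set named here were not analysed. Tests used limma 3.58.1 (R 4.3.3) with a trend, the background as a block and Benjamini-Hochberg adjustment over all genes. They were checked on simulated data with independent noise and no differences between backgrounds other than the simulated effect. That check therefore does not cover backgrounds that respond unequally. The p-values measure the spread between backgrounds, which are not replicate cultures. The labels number no replicates. The members and lists were chosen with earlier results of these data known. Named were all members, the 5 further network genes and up to 4 genes a list, by the largest ratio in any pair among those past a test or over 2-fold; Sycp1, Sycp2, Tdrkh, Tex101, Ldha, Gart, Nop56, Cdkn1b and Etv5 were named after their values were seen. Marker lists for primitive endoderm (4 genes) and fibroblasts (5 genes) had 0 genes past the common test, and of 8 ESC markers Sall4 fell. Alternatives were the choice, filter and normalisation of probe sets, the fit, the fold limit and leaving out a pair. A pair for Stat3 was not analysed here.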

Additional observations from a re-analysis of the deposited data

Results flagged for a closer look

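Of 24 sets of 4 values looked at for the members, 2 held a value far from the other 3 by Dixon's criterion (the gap to the nearest value as a share of the range), where chance gives about 1 in 20. The Myc log2 ratio of -2.07 in the 2i pair lay apart by 0.874 of the range of the 4 pairs. The Max log2 ratio of 0.12 in the empty vector pair lay apart by 0.843 of a range that was itself small.

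Among the 8 members and the 30 list genes chosen by the naming rule, 0 members and 3 list genes had Nanog and Esrrb ratios of one sign and 2i and empty vector ratios of the other. Over the whole lists 22 of 147 genes other than members did, and 11.1% of all genes. The difference in Dox log2 ratio was 0.66 for Mlxip, -2.06 for Thbs1 and 1.78 for Egr1, with limma adjusted p-values of 0.285, 0.201 and 0.0842, so none passed the test of the difference.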

How the results depend on the processing

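The common test called 1287 genes, 2712 when each probe set was tested, and 3 to 35 when a pair was left out, and 0 members, but 1 (Mga) with probe sets averaged by gene, with genes above the median signal only, without the background block, or with any probe set of a gene allowed to pass, a rule added after the values were seen. The difference test called 15 genes, 1 with the mean of probe sets, 112 by probe set, 0 with dim genes left out, 77 with arrays centred on their median, 1 without the trend, and 0 to 2222 with a pair left out, where 0 to 5 members passed. With a limit of 1.5-fold instead of 2-fold, 1569, 1527, 3665 and 3803 genes differed in the Nanog, Esrrb, 2i and empty vector pairs, and 1, 1, 5 and 4 members. With 3-fold, 96, 97, 539 and 671 genes differed, and 1 member in each of the 2i and empty vector pairs, as also with the mean of probe sets. With a pair left out, the common ratio of Myc ran from -0.64 to 0.13 and its difference from -0.18 to 2.14, with the turned signs both without the 2i pair. The Max difference ran from -0.25 to 0.036, turned without the empty vector pair. The turned common ratio of Myc did not pass the threshold. Among the other members, the common ratio of Mxd4 ran from 0.34 to 1.05, of Mnt from -0.53 to -0.20, of Mxd3 from -0.53 to -0.24, and the differences of Mxd4 from -2.05 to -0.99, of Mga from 0.34 to 0.89, and of Mxd1 from -0.38 to -0.05. The cause of these changes was not tested beyond the fewer pairs or genes used. The arrays were paired by background, the block of the fit, and without this block 1272 genes passed the common test. The labels number no replicates that could be paired otherwise.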
